A study of Homo sapiens with 2 samples.

Results

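The genes described here are the fibroblast growth factor (FGF) ligands, their receptors, and the inhibitors and transcription factors that ERK signalling induces, measured in both substates of the human embryonic stem cell line H9. The list held 40 genes, and a gene was covered when a non-control probe of the array carried a RefSeq accession of that gene. On this basis 39 of the 40 genes had 55 probes, out of 22439 named genes with a probe on the array. No probe was matched to FGF11, which is not analysed here.

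Most FGFs are secreted proteins that bind receptor tyrosine kinases on the cell surface together with heparan sulphate, and the activated receptors switch on the kinase ERK through the adaptor FRS2, Ras, RAF and MEK. ERK then induces transcription factors such as ETV4, ETV5 and EGR1, together with inhibitors such as the Sprouty proteins and the dual-specificity phosphatases, which dampen the same pathway, so that their transcripts are widely used as a readout of ERK activity. In human pluripotent stem cells FGF2 is a standard component of the culture medium that maintains the undifferentiated state, and in the embryo FGF signals also take part in neural induction and in the formation of mesoderm.

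H9 is an established embryonic stem cell line. All cells grew without feeder cells on Matrigel, a basement membrane extract, in the defined medium TeSR-E8. Substates were defined in the study on stained colonies, from the R-10G epitope of pluripotent cells and the mesenchymal protein vimentin. Substate 1 (passage 35) was rich in R-10G and lacked vimentin, and substate 2 (passage 50) was vimentin-positive with less R-10G and looser colonies. Total RNA of each substate was labelled with Cy3 and hybridised to 1 single-colour array per substate, so the substates could not be tested against each other and every difference below is a value without replicates or a p-value. Both arrays were on the same slide and in the same scan, but passage, and with it time on Matrigel, cannot be told apart from substate. Because these are bulk samples of colonies, fewer cells that express a gene and less RNA per cell cannot be told apart either.

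Signals well above background were found for 55.6% of the 58201 probes in substate 1 and for 52.8% in substate 2. A probe was counted as measured when this held on both arrays, and 16001 named genes had such a probe. Levels are log2 processed signals minus the 75th percentile of the same array, and differences are substate 2 minus substate 1 on that log2 scale. The median difference of the 16001 genes was 0.08, with an SD of 0.38. The pluripotency markers were present on both arrays: 9 of 10 were measured, with a median difference of 0.19, and TDGF1 had no matched probe. VIM, the gene for vimentin, had levels of 3.16 and 5.68 in substate 1 and substate 2, and CDH1, the gene for E-cadherin, had levels of 4.91 and 3.44, which followed the labels. Of 6 neural markers 3 were measured and all were higher in substate 2, with a median difference of 0.47, while SOX1 and POU3F2 were well above background in substate 2 only and PAX6 on neither array. Of 6 mesendoderm markers 5 were well above background on neither array, and the exception, FOXA2, differed by 0.77. Of 6 fibroblast markers 4, including DCN and LUM, were well above background on neither array, and COL1A1 and THY1 differed by -0.49 and -0.11. Of 4 trophoblast markers KRT7 differed by 0.16, CGA was well above background in substate 2 only and the other two on neither array, and of 3 neural crest markers 2 were measured with a median difference of 0.06. The part that any of these cell types has in the values of the FGF genes was not tested.

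Of the 39 FGF pathway genes with a probe, 29 were measured on both arrays, 3 passed on the array of substate 1 alone, and 7 passed on neither array. The receptors, the feedback inhibitors and the ERK-induced factors were nearly all measured, with KLB as the exception, whereas 9 of the 17 secreted ligands were. Most ligand transcripts that were measured were dim, with a mean processed signal under 100 for 7 of the 9. The difference was above 0 for 13 of the 29 genes and below 0 for 16, against 59.8% of all measured genes above 0 and 40.2% below. The median difference of the 29 was -0.04, and 12 lay above and 17 below the median of all genes. These counts describe the genes that passed the filter and not the whole list.

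**Figure D1:**
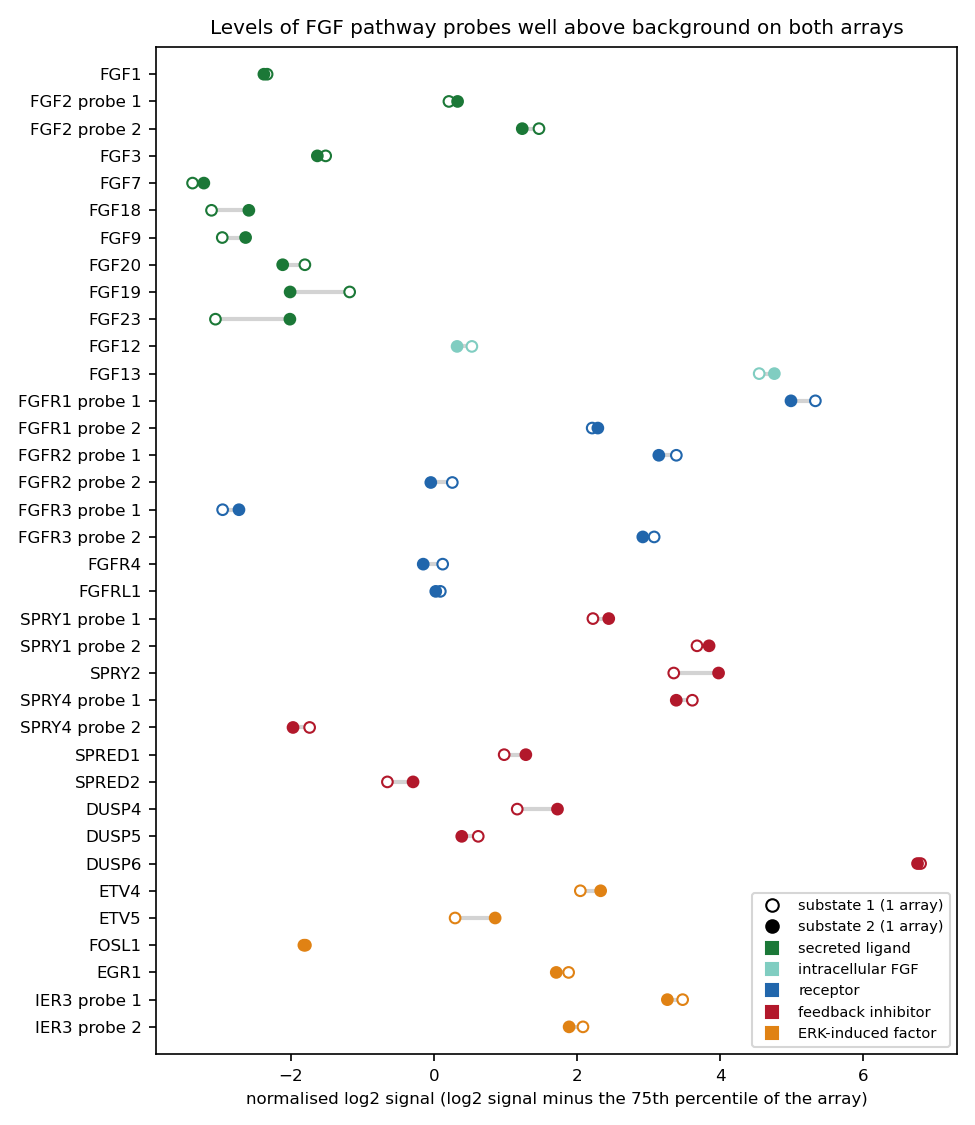
Normalised log2 signal (x axis, log2 signal minus the 75th percentile of the array) of each of the 36 probes of the FGF pathway genes measured on both arrays, with 1 open point for the substate 1 array and 1 filled point for the substate 2 array, coloured by role. The pairs of points lie close together for most probes, and the widest gaps are those of FGF23 (-3.05 and -2.01) and FGF19 (-1.18 and -2.01). Levels of different probes are not comparable with each other.

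Large differences were few. FGF23 was the only measured gene that was 2-fold or more higher in substate 2, against 0.931% of all measured genes, and no measured gene was 2-fold or more lower, against 1.07%. At a limit of 1.5-fold, FGF23 and SPRY2 were higher, against 4.32% of all genes, and FGF19 was lower, against 5.03%. Together 3 of the 29 measured genes were past 1.5-fold, where 9.35% of all measured genes were. Each value carries the error that the scanner software models for a spot, and differences are given with the error that follows from it. For a gene with several measured probes, the probe errors were combined as if independent, which makes the error of the mean smaller. By that measure the difference was over 2 times its error for 5 of the 29 genes (17.2%), namely FGF19, FGF23, SPRY2, DUSP4 and ETV5, against 23.6% of all measured genes. This error is modelled and was not measured from repeated spots. For bright probes it was nearly proportional to the signal, so the error of a difference at a single probe was near 0.20 whatever the gene. Between repeated spots with a mean signal of 1000 or more, the SD of a difference was smaller, at 0.065. Neither value holds variation between cultures, RNA preparations and labelling reactions.

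Among the secreted ligands, the endocrine FGFs held both the highest and the lowest difference. FGF23, the bone hormone that lowers blood phosphate, had a processed signal of 37.8 ± 4.84 in substate 1 and 68.2 ± 7.51 in substate 2. Substate 2 was therefore the higher, by 1.04 ± 0.24 on the log2 scale or 2.06-fold, and 134 of the 16001 genes (0.837%) were as high or higher. FGF19, the gut hormone that restrains bile acid synthesis in the liver, gave a signal of 138.5 ± 14.1 in substate 1 and 68.3 ± 7.46 in substate 2. Its difference of -0.83 ± 0.22 made it 1.78-fold lower in substate 2, and 312 genes (1.95%) were as low or lower. Differences past 1.5-fold were more frequent among dim genes. Among all genes with a mean signal under 100, to which FGF23 belongs, 19.1% were past 1.5-fold, and among those between 100 and 1000, to which FGF19 belongs, 9.55% were.

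The size of both values depended on how the signals were corrected. When the median spot signal was corrected by the normexp model with an offset of 50, in place of the scanner's processed signal, the difference of FGF23 was 0.52 and that of FGF19 was -0.41, so neither was past 1.5-fold. An added offset of this size by itself brings log ratios of dim spots closer to 0. Directions were kept under this correction and under 3 other scalings. FGF21, the endocrine FGF of the liver that acts on glucose and lipid metabolism, was well above background in substate 1 only, with signals of 21.1 and 6.39 in substate 1 and substate 2. Against the lowest level that counted as well above background on the substate 2 array it was at least 1.23-fold lower there. KLB, the co-receptor through which FGF19 and FGF21 act, had 2 probes and was well above background on neither array.

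FGF2, the ligand supplied to pluripotent cells in culture, had 2 measured probes that went in opposite directions. One gave signals of 362 ± 36.5 in substate 1 and 346 ± 34.8 in substate 2, a difference of 0.12 ± 0.21. The other gave 867 ± 86.7 and 647 ± 64.8, a difference of -0.23 ± 0.20. Their mean was -0.06, and it was 0.01 under normexp correction, so no direction can be read for FGF2 from these arrays. FGF1, which shares its subfamily and can bind every FGF receptor, had 1 measured probe of 3 with signals of 62.3 ± 7.01 and 53.0 ± 6.28 and a difference of -0.05 ± 0.24, whose sign turned under quantile normalisation and normexp correction.

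The ligands of the remaining subfamilies differed by less than 1.5-fold where they were measured. FGF18, a growth factor of cartilage and bone, had signals of 36.3 ± 5.19 in substate 1 and 45.8 ± 6.08 in substate 2, higher in substate 2 by 0.52 ± 0.28. FGF9, a ligand that acts in the embryonic gonad and lung, had signals of 40.3 ± 5.09 and 44.4 ± 5.51 at its measured probe, a difference of 0.33 ± 0.26. Its second probe passed the background limit in substate 1 alone, with signals of 23.1 and 18.5 and a difference of -0.13 ± 0.44. That sign is opposite to the sign of the measured probe, but the difference was smaller than its error. FGF20, from the same subfamily as FGF9, was lower in substate 2, with signals of 89.8 ± 9.48 and 63.6 ± 7.11 and a difference of -0.31 ± 0.22 at 1 of its 2 probes. FGF16, the remaining gene of this subfamily, was well above background in substate 1 only, with signals of 19.6 and 3.00, and was at least 1.15-fold lower in substate 2.

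FGF3 and FGF7 belong to a subfamily that signals from mesenchyme to epithelium. FGF3 had signals of 110 ± 11.4 in substate 1 and 88.9 ± 9.54 in substate 2, a difference of -0.12 ± 0.22, and FGF7 had signals of 30.2 ± 4.67 and 29.6 ± 4.83 at 1 of its 2 probes, a difference of 0.16 ± 0.32. Both differences were smaller than their error. FGF22, of the same subfamily, exceeded background in substate 1 alone, at 1 of 2 probes with signals of 32.8 and 17.6. Against its own dim signal it was 1.64-fold lower in substate 2, a difference of -0.71 ± 0.38. FGF10, the fourth gene of this group, was well above background on neither array.

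Well above background on neither array, besides FGF10, were the ligands FGF4, FGF5, FGF6 and FGF17. FGF5 had 3 probes and each of the others had 1. FGF4 is a target of OCT4 and SOX2 in mouse pluripotent cells, and FGF5 marks the primed epiblast of the mouse. Their signals in substate 1 and substate 2 were 3.01 and 3.24 for FGF4 and reached no more than 12.7 and 11.4 for FGF5. At this signal over background, no difference was detectable.

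All probes of these genes that were well above background on a single array, 4 in number, were so in substate 1. Over the whole array 74.8% of the 3283 such probes were also of substate 1 only, so the 4 FGF probes follow the direction of most of the array. None of the 4 had a bound of 2-fold or more, where 7.13% of the 2455 probes of substate 1 only did. Under the Z-score of the study, which sets the difference of a probe against all probes, FGF16 (-4.10) and FGF21 (-2.54) were past -2, where 3.3% of all probes were, and no probe was past 2, where 3.03% were. Both rest on a substate 2 signal that was not well above background.

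The intracellular FGFs are not secreted and are best known as partners of voltage-gated sodium channels. FGF13 was bright, with signals of 7310 ± 731 in substate 1 and 7433 ± 743 in substate 2, and differed by 0.21 ± 0.20. FGF12 had signals of 452 ± 45.4 and 344 ± 34.6 and differed by -0.21 ± 0.20. The pair therefore differed by the same size in opposite directions, each close to its error. FGF14 was well above background on neither array.

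No receptor differed by 1.5-fold or by more than 2 times its error. All 4 receptor tyrosine kinases lay below the median difference of all genes, with a median of -0.20, and 3 of the 4, FGFR1, FGFR2 and FGFR4, lay below 0 under every scaling while FGFR3 changed sign under normexp correction. FGFR1, the most studied FGF receptor of human embryonic stem cells, had signals of 12599 ± 1260 in substate 1 and 8731 ± 873 in substate 2 at 1 probe, a difference of -0.34 ± 0.20. Its second probe, designed to another RefSeq transcript of FGFR1, gave 1450 ± 145 and 1345 ± 135, a difference of 0.08 ± 0.20. The probes of FGFR1 thus differed in sign and lay 0.42 apart, where the median distance between the probes of 3414 genes with 2 measured probes was 0.15 and the 90th percentile was 0.49.

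FGFR2 was lower in substate 2 at both of its probes. Signals were 3277 ± 328 and 2428 ± 243 at one probe, a difference of -0.24 ± 0.20, and 374 ± 37.6 and 267 ± 26.9 at the other, a difference of -0.30 ± 0.21. The probes of FGFR2 lay 0.06 apart, and their mean of -0.27 made FGFR2 1.21-fold lower. FGFR4, the receptor that pairs with KLB in the liver, was lower by a similar size, with signals of 341 ± 34.3 and 248 ± 25.1 and a difference of -0.27 ± 0.21.

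FGFR3, which restrains bone growth, had a bright probe with signals of 2643 ± 264 in substate 1 and 2079 ± 208 in substate 2, a difference of -0.16 ± 0.20, and a dim probe with 40.5 ± 5.31 and 41.6 ± 5.59, a difference of 0.23 ± 0.27. Their mean was 0.03, which turned to -0.03 under normexp correction, so FGFR3 has no settled direction here. FGFRL1, a receptor that binds FGFs but has no kinase domain, had signals of 333 ± 33.5 and 280 ± 28.2 and a difference of -0.06 ± 0.21, with 0.03 under normexp correction.

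**Figure D2:**
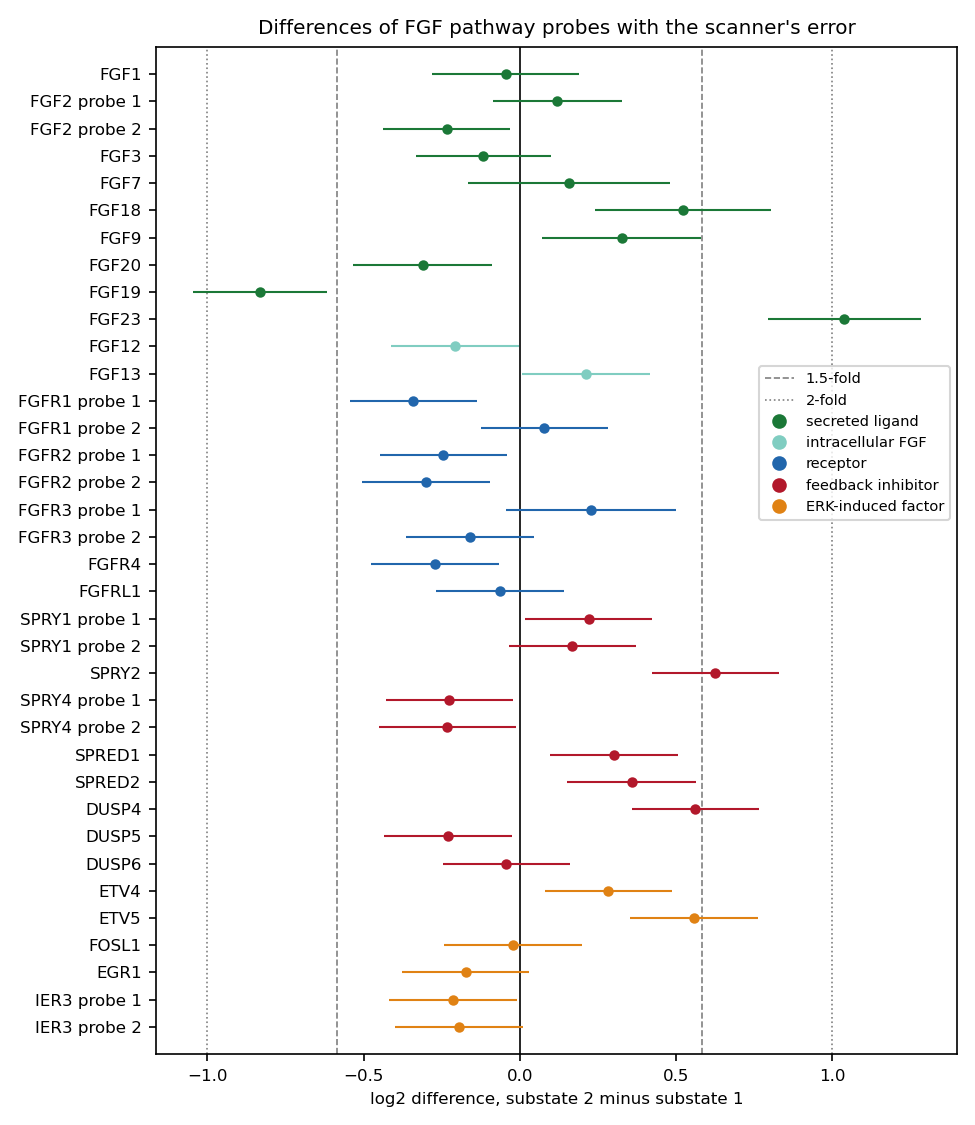
Log2 difference, substate 2 minus substate 1 (x axis), of each of the 36 measured probes of the FGF pathway genes, with bars of 1 error of the difference from the scanner's error model and dashed and dotted lines at 1.5-fold and 2-fold. Of the 36 probes 16 lie above 0 and 20 below, both probes of FGFR2, SPRY1, SPRY4 and IER3 lie on the same side of 0, and those of FGF2, FGFR1 and FGFR3 lie on both sides.

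The genes that ERK induces include both the brakes of the pathway and its transcription factors. Promoter sequence from RefSeq (assembly GRCh38.p14), 250 bases upstream of a transcription start, was matched to 27 of the 40 genes, with 47 windows in all. The windows of EGR1, DUSP6 and SPRY2 are shown, as an immediate-early target of ERK and 2 of its inhibitors, each 5′ to 3′ on the strand of the gene, with matches to the searched motifs in capitals. They lie at chr5:138465229-138465478 on the plus strand for EGR1, at chr12:89352502-89352751 on the minus strand for DUSP6 and at chr13:80341127-80341376 on the minus strand for the first of 3 windows of SPRY2.
EGR1: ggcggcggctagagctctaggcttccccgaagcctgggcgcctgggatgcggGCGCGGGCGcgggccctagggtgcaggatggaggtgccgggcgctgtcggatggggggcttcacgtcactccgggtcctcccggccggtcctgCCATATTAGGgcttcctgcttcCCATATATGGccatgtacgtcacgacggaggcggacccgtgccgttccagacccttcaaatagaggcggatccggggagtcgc
DUSP6: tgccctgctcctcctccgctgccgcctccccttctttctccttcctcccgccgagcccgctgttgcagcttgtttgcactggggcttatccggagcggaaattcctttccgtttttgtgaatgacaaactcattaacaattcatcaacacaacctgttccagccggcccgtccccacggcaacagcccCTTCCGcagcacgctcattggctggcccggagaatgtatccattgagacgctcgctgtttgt
SPRY2: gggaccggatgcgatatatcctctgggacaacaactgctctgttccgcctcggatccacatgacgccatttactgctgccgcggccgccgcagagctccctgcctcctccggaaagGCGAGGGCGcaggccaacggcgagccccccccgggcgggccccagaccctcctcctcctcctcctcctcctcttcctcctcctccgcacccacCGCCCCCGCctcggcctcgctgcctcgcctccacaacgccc

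Motifs of factors downstream of ERK were searched on both strands. They were the CArG box of serum response factor, ETS (CGGAAG), AP-1 (TGANTCA) and EGR (GCGNGGGCG). Counted from -1 at the base before the start, EGR1 held CArG boxes at -105 to -96 and at -83 to -74 and an EGR match at -198 to -190. DUSP6 held an ETS match at -62 to -57, and SPRY2 held EGR matches at -134 to -126 and at -41 to -33. No matches overlapped in these windows. Of all 35116 windows 1.16% held a CArG box, 16.5% an ETS, 6.57% an AP-1 and 8.41% an EGR match. Among the 47 windows of the FGF pathway genes the CArG box was found in 2 (EGR1 and FGF3), ETS in 3 (SPRY1, FGF23 and DUSP6), AP-1 in 2 (FGF1 and FGF13) and EGR in 9. A match describes the letters and not a bound site.

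The 8 feedback inhibitors were all measured, and 5 of them were higher and 3 lower in substate 2, with a median difference of 0.25. Of all measured genes 59.8% lay above 0, with a median of 0.08. Among all genes with a mean signal of 1000 or more, a class that held 4 of the inhibitors, the median was 0.15. Of the inhibitors SPRY2, a Sprouty protein that restrains Ras-ERK signalling below receptor tyrosine kinases, differed most. Its signals were 3196 ± 320 in substate 1 and 4331 ± 433 in substate 2. It was higher in substate 2 by 0.63 ± 0.20 or 1.54-fold, and 578 genes (3.61%) were as high or higher. Its value lay between 0.51 and 0.67 under the other scalings, and it was under 1.5-fold with quantile, loess and normexp processing. Among all genes with a mean signal of 1000 or more, to which SPRY2 belongs, 3.71% were past 1.5-fold.

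The Sprouty genes did not share a direction. SPRY1 was higher in substate 2 at both probes, with signals of 1461 ± 146 and 1495 ± 150 at one, a difference of 0.22 ± 0.20, and 4003 ± 400 and 3951 ± 395 at the other, a difference of 0.17 ± 0.20. SPRY4 was lower at both, with 3827 ± 383 and 2874 ± 287 at one, a difference of -0.23 ± 0.20, and 94.0 ± 9.87 and 70.2 ± 7.70 at the other, a difference of -0.23 ± 0.22. Within each gene the probes lay close, 0.05 apart for SPRY1 and 0.01 apart for SPRY4. Probes of a gene share the same RNA and arrays, so this closeness is not replication. The means over probes were 0.20 ± 0.14 for SPRY1 and -0.23 ± 0.15 for SPRY4, on opposite sides of 0. These smaller errors treat the probes of a gene as independent, which they are not.

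SPRED1 and SPRED2, the Spred genes of the main list, whose proteins bring neurofibromin to the membrane to switch off Ras, were higher in substate 2. SPRED1 had signals of 618 ± 61.9 and 670 ± 67.1 and a difference of 0.30 ± 0.20, and SPRED2 had 199.6 ± 20.2 and 225 ± 22.7 and a difference of 0.36 ± 0.21. Neither was past 1.5-fold, and both kept this direction under each scaling. SPRED3, a Spred gene among the other pathway genes, went the other way. Its measured probe had signals of 198 ± 20.1 and 141 ± 14.7 and a difference of -0.30 ± 0.21.

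The dual-specificity phosphatases, which remove the activating phosphates from MAP kinases, also went different ways. DUSP4, a nuclear phosphatase, was higher in substate 2, with signals of 702 ± 70.3 and 910 ± 91.1, a difference of 0.56 ± 0.20 or 1.48-fold. DUSP5, a nuclear phosphatase specific for ERK, was lower, with 481 ± 48.2 and 360 ± 36.2 and a difference of -0.23 ± 0.20. DUSP6, the cytoplasmic ERK phosphatase whose transcript is often used as a direct readout of FGF signalling, had bright signals of 34905 ± 3491 and 29744 ± 2974. Its levels of 6.80 and 6.76 differed by -0.04 ± 0.20, and its value ranged from -0.23 to -0.00 over the other scalings.

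The 5 ERK-induced factors were also split, with 2 above 0, 3 below and a median difference of -0.02. ETV5, an ETS factor, was higher in substate 2, with signals of 385 ± 38.6 and 498 ± 49.9, a difference of 0.56 ± 0.20 or 1.47-fold, and 816 genes (5.10%) were as high or higher. ETV4, its close relative, had signals of 1293 ± 129 and 1382 ± 138 and a difference of 0.28 ± 0.20. The ETS pair was thus higher in substate 2, and neither was past 1.5-fold.

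EGR1 and IER3, the immediate-early genes of the list, and the AP-1 factor FOSL1 differed by little. EGR1, a zinc finger factor that ERK induces within minutes, had signals of 1155 ± 116 in substate 1 and 899 ± 89.98 in substate 2, a difference of -0.17 ± 0.20. IER3, an early-response gene linked to cell survival, had 3484 ± 348 and 2637 ± 264 at one probe and 1327 ± 133 and 1018 ± 102 at the other, differences of -0.21 ± 0.20 and -0.19 ± 0.20. The probes of IER3 lay 0.02 apart. FOSL1 had signals of 90.2 ± 9.66 and 78.0 ± 8.63 and a difference of -0.02 ± 0.22, whose sign turned under all 4 other scalings.

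Over the 13 inhibitors and factors together, the usual readouts of ERK activity, the median difference was 0.20, with 7 above 0 and 6 below. The median of all genes was 0.08, and 59.8% of all measured genes lay above 0. Above 0 were SPRY1, SPRY2, SPRED1, SPRED2, DUSP4, ETV4 and ETV5, and below 0 were SPRY4, DUSP5, DUSP6, FOSL1, EGR1 and IER3. The set therefore showed no common direction. Of the 13 only SPRY2, DUSP4 and ETV5 differed by more than 2 times their error, where 23.6% of all measured genes did. Each of these named genes was higher in substate 2.

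**Figure D3:**
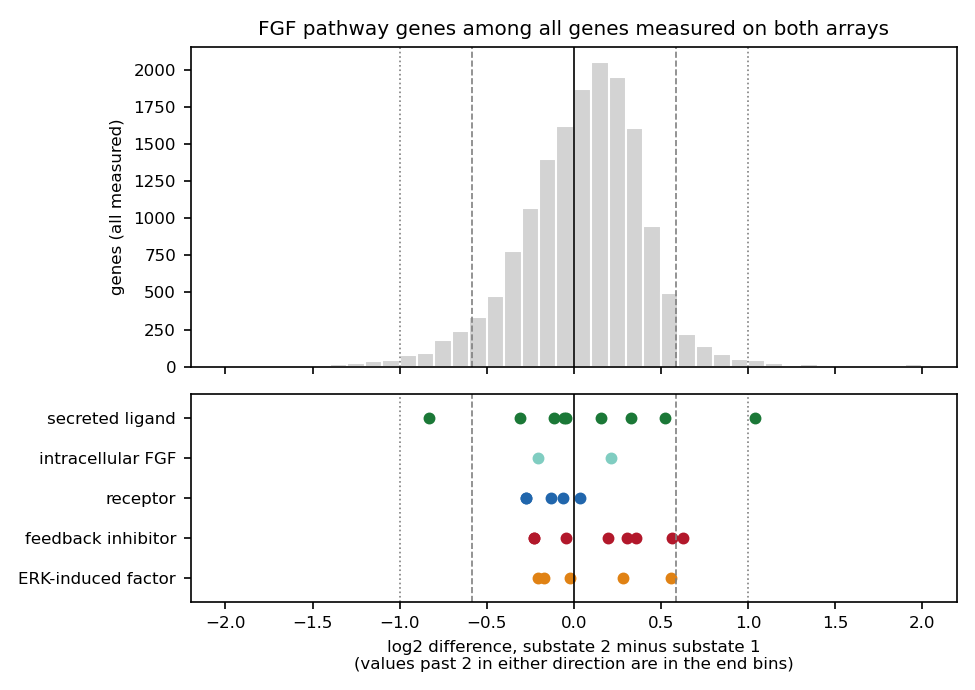
Upper panel, number of genes (y axis) by log2 difference, substate 2 minus substate 1 (x axis), over all 16001 genes measured on both arrays. Lower panel, the 29 measured FGF pathway genes by role on the same x axis, with 1 point per gene. The 5 receptors spread from -0.27 to 0.03, the feedback inhibitors spread from -0.23 to 0.63, and the ligands FGF19 and FGF23 lie outermost at -0.83 and 1.04. Dashed and dotted lines mark 1.5-fold and 2-fold.

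The rest of the pathway, 53 other genes chosen by function, served as context. Of these 42 were measured, 3 were well above background on 1 array and 7 on neither, and ELK3 had no matched probe. Their median difference was 0.13, where that of all genes was 0.08, and 28 lay above 0 and 14 below, where 59.8% of all genes lay above 0. None of the 42 was 1.5-fold or more higher in substate 2, where 4.32% of all genes were, and 1 was lower, where 5.03% were. This was PHLDA1, an ERK-induced gene, with signals of 985 ± 98.6 in substate 1 and 478 ± 47.9 in substate 2, which was 1.81-fold lower with a difference of -0.86 ± 0.20. The adaptors and kinases between receptor and nucleus had a median of 0.15 over 18 measured genes, 14 of which lay above 0 and 12 above the median of all genes. The highest of these were MAP2K2 (0.50), MAPK3 (0.47) and HRAS (0.44), which encode MEK2, ERK1 and H-Ras, and the lowest was BRAF (-0.19). The Ras and receptor brakes outside the main list had a median of 0.07 over 10 genes, and the further transcription factors and targets a median of 0.10 over 12. Immediate-early factors among the latter lay on both sides of 0, with differences of 0.56 for FOS, 0.21 for JUNB, 0.06 for IER2, -0.29 for EGR2 and -0.33 for JUN.

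By a bound, FLRT3 was also past 1.5-fold. FLRT3, a membrane protein that binds FGF receptors and promotes their signalling, was well above background in substate 2 only, with signals of 6.85 in substate 1 and 37.9 in substate 2, and was at least 2.99-fold higher there. Over the array 31.4% of the 828 probes of substate 2 only had a bound of 2-fold or more. At ELK1, an ETS factor that ERK phosphorylates, the probes disagreed. One was well above background in substate 1 only, with signals of 25.8 and 13.0, and was at least 1.51-fold lower in substate 2, whereas the measured probe differed by 0.20.

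**Figure D4:**
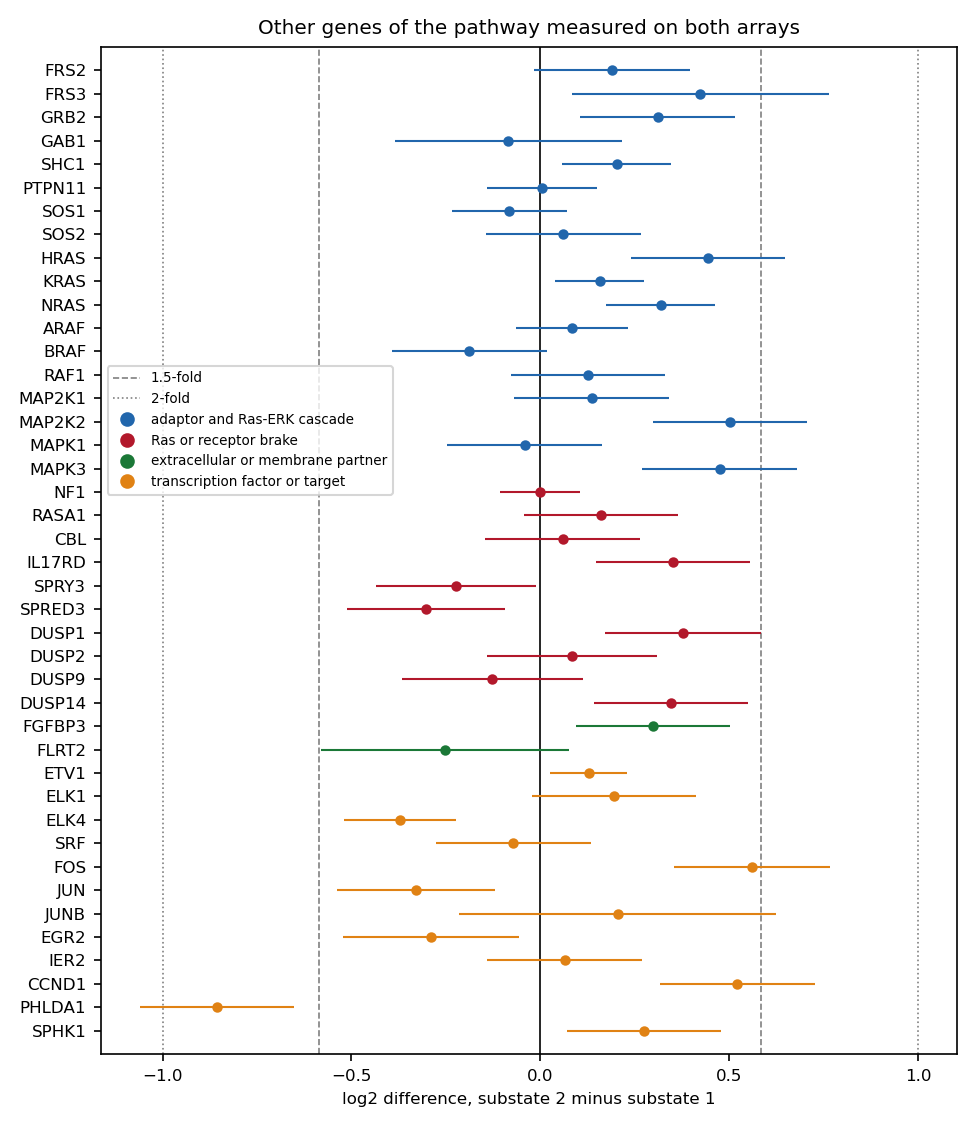
Log2 difference, substate 2 minus substate 1 (x axis), of the 42 other pathway genes measured on both arrays, coloured by role, with bars of 1 error of the difference from the scanner's error model and lines at 1.5-fold and 2-fold. PHLDA1 at -0.86 is the only point past 1.5-fold, and 14 of the 18 adaptors and kinases lie above 0.

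The direction of most of the measured FGF pathway genes did not depend on how the arrays were scaled. Of the 29 genes 24 kept their sign under median centring, quantile normalisation, loess centring and normexp correction. The exceptions were FGF1, FGF2, FGFR3, FGFRL1 and FOSL1, whose differences lay between -0.06 and 0.03. All methods re-use the same arrays, so a kept sign is not replication. It can also go with a difference smaller than its error, as for DUSP6 (-0.04 ± 0.20). The sizes of FGF23, FGF19 and ETV5 moved by more than their error under normexp correction, and no other single value did under the 4 methods. Under normexp correction none of the 29 genes was past 1.5-fold, and 3.77% of all genes were.

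**Figure D5:**
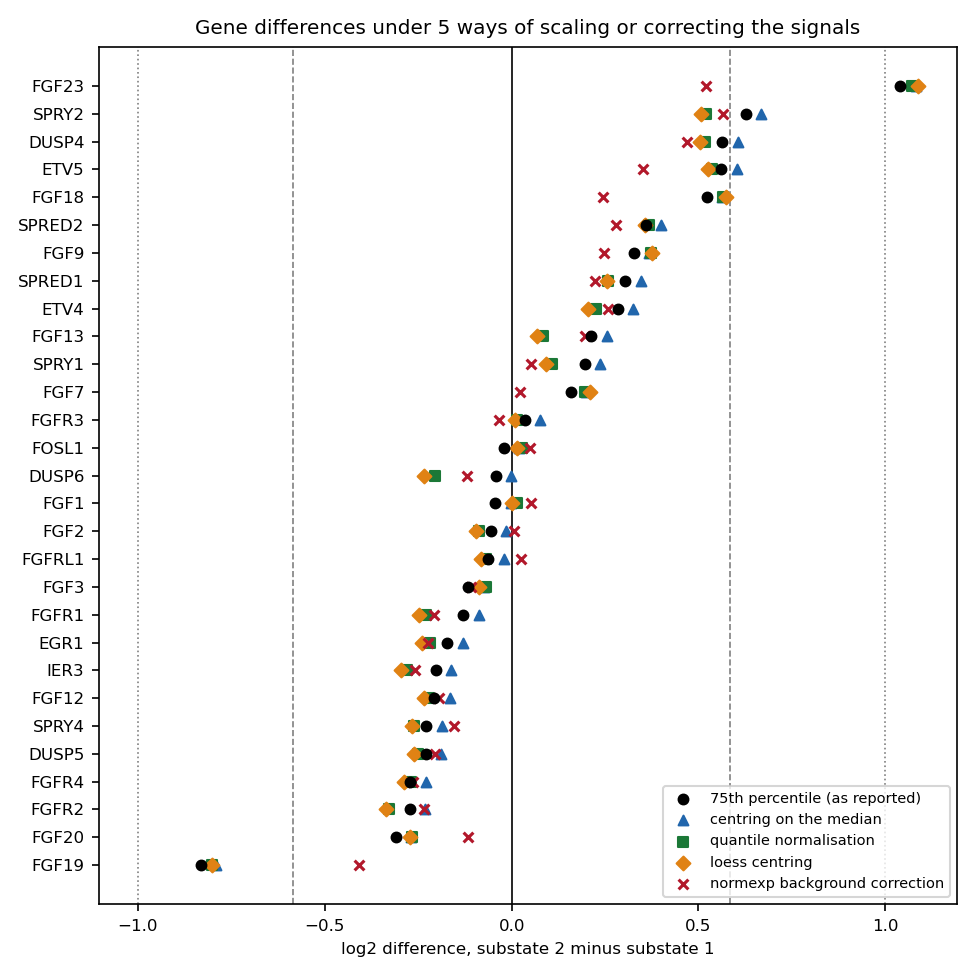
Log2 difference, substate 2 minus substate 1 (x axis), of the 29 measured FGF pathway genes under 5 ways of scaling or correcting the signals, with 1 symbol per method and lines at 1.5-fold and 2-fold. Symbols of a gene lie close together for most genes, and the widest gaps are those of FGF23 (1.04 as reported and 0.52 under normexp correction) and FGF19 (-0.83 and -0.41).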

How the data were processed

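The authors deposited the scanner output of both arrays, with an intensity for each spot. Background was subtracted and spatial trends were removed in Feature Extraction 11.5.1.1 (protocol GE1_1105_Oct12, array annotated on hg19), per the file headers. The authors also deposited a matrix of log2 values, scaled in GeneSpring GX by the 75th percentile, and these differed from the values computed here by a constant per array for 100% of probes within 0.01.

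Signals under 1 were set to 1 (0 spots), outlier spots were left out, log2 was taken and the 75th percentile of the non-control probes was subtracted. The number of arrays limits the precision. Probes were named through RefSeq accessions (31104 of 58201, and 9747 probes with Ensembl identifiers stayed unnamed). The measured probes of a gene were averaged, and 0 of them were saturated. A probe above background on 1 array was set against the higher of its own dim value and the lowest level well above background on the dim array. Where its own value was the higher, as for FGF22 and FGF9, the bound is the observed difference and not a minimum. The Z-score is the difference minus the mean over all probes, divided by their SD. The scaling step was tested on simulated data. Each probe of the FGF pathway genes was printed once. For 9 probes printed several times with a mean signal under 100, the spread between spots corresponds to an SD of 0.22 for a difference of single spots. The same SD was 0.089 for 53 such probes with a mean signal of 100 to 1000. It was 0.065 for 229 such probes with a mean signal of 1000 or more.

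The genes, the lists and the rules for naming them were chosen with earlier results of these data known. Every gene of the main list is accounted for, and other pathway genes are named where past 1.5-fold. Exceptions are SPRED3 and the kinases, Ras genes and immediate-early factors named with their differences, which were picked after their values were seen. Python 3.11.15, pandas 2.3.3, R 4.3.3 and limma 3.58.1 were used. The alternatives were 3 scalings, normexp background correction (offset 50), 2 filters, outlier spots kept, 2 summaries of probes and the deposited log2 matrix.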

Additional observations from a re-analysis of the deposited data

How the results depend on the processing

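Of 10 alternatives, median centring, quantile normalisation, loess centring, normexp correction and both looser filters moved a count or a median. The count of measured genes past 1.5-fold, 3 as reported, was 5 under median centring, 2 under quantile normalisation and under loess centring, 0 under normexp correction, 6 of 33 when probes had only to be positive and significant against background and 7 of 39 with no filter. Of all genes 15.3% and 16.8% were past it under these filters. Past 2-fold, 1 as reported, the counts were 0 under normexp correction, 2 under the positive and significant filter and 3 with no filter, where 5.06% and 6.64% of all genes were past it. With no filter, where probes at background level enter, the median of the 39 genes with a probe was 0.035 and that of the secreted ligands 0.072. Both were below 0 as reported. With the filter unchanged, both medians were 0.014 under quantile normalisation and 0.023 under normexp correction, so their sign depended on the processing. The median of the feedback inhibitors, 0.25 as reported, was 0.17 under loess centring and 0.14 under normexp correction. Of the other pathway genes, 1 past 1.5-fold as reported, 2 were past it under median centring, 4 under the positive and significant filter and 7 with no filter. The median of all measured genes was 0.13 under median centring. The cause of these shifts was not tested.

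Of the values of single genes under the alternatives, 281 moved by less than their error and 9 by more. Besides FGF23 and FGF19, ETV5 was 0.35 under normexp correction, FGF20 was -0.03 under both looser filters and FGF1 was 0.20 with no filter. With the brightest probe in place of the mean, FGF2 was -0.23, FGFR1 was -0.34 and FGFR3 was -0.16.

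Naming probes by a gene name column was not run, because the scanner text used here pairs probes with accessions and not with gene names. The normexp correction used the median signal in place of the mean. No paired analysis was possible because there was 1 array for each substate, which also leaves no array to leave out. Dim signals limit the ligands most, since 7 of the 9 measured had a mean signal under 100.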

Other observations

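The array also carried 24 probes for long noncoding RNAs named after 12 of these loci, which entered none of the values above. Of these 7 were well above background on both arrays, with differences from -0.46 to 0.61, and 17 on neither. Although FGF10 itself was well above background on neither array, 3 of the probes named lnc-FGF10-3 were measured and all were higher in substate 2, by 0.23, 0.33 and 0.61. The measured probe named lnc-FGF3-4 differed by -0.46, beside -0.12 for FGF3, and the probe named lnc-FGFR4-1 differed by -0.24, beside -0.27 for FGFR4. Probes named lnc-DUSP4-1 and lnc-DUSP4-4 differed by -0.21 and -0.00, where DUSP4 differed by 0.56. A name of this kind gives a neighbouring locus and not a transcript of that gene.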
